A study of Mus musculus with 8 samples.

Results

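The genes described here are 10 mouse genes of the p53 pathway and of the DNA damage checkpoint: Trp53, its targets Cdkn1a, Ccng1, Gadd45a, Phlda3, Sesn1 and Trp53inp1, its feedback regulator Mdm2, and the kinases Chek1 and Chek2. A probe set was taken for a gene when the platform annotation gave that gene's symbol alone. Of the 10 genes, 9 had such a probe set, of 12393 genes in all, and they had 19 probe sets of 20380. Trp53 itself was not analysed here. All 9 had a mean above the limit used for testing, 6.87 on the log2 scale.

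The cells were activated cytotoxic CD8 T cells of OT-1 mice, which carry a transgenic T cell receptor for an ovalbumin peptide. From each of 4 mice, named A to D, T cells went into 2 cultures with peptide-loaded ID8 cells, a mouse ovarian cancer line. In one culture the ID8 cells overexpressed PD-L1, which binds the inhibitory receptor PD-1 on T cells, and in the other they had been depleted of it. Contact lasted 4 h at 30 T cells per target cell, the T cells were then recovered with magnets, and each of the 8 samples was measured on 1 array. Every sample had met peptide-loaded targets, so the groups hold no resting T cells and no cells treated with a DNA-damaging agent. Age, sex and the way PD-L1 was altered are not given in the sources used here.

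p53 is a transcription factor that is kept scarce by Mdm2, a ubiquitin ligase, and that accumulates when DNA is damaged or growth signals are abnormal. It then switches on genes that stop the cell cycle, such as Cdkn1a, which encodes the cyclin-dependent kinase inhibitor p21, and also Mdm2, which closes a feedback loop. Chek1 and Chek2 encode the kinases that pass on the signal of the damage sensors ATR and ATM. In activated T cells, which divide quickly, Cdkn1a is also induced without DNA damage.

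The upstream sequences of the 4 genes that passed the test between mice (below) are given because the motif that p53 binds could be looked for in them. They come from RefSeq on build GRCm38.p6 and end before the annotated start of the gene, and capitals mark matches to the consensus p53 half-site, the 10-base element that p53 binds in pairs. The Cdkn1a sequence is chr17:29090729-29090978 on the plus strand, that of Mdm2 chr10:117710759-117711008 on the minus strand, that of Ccng1 chr11:40755310-40755536 on the minus strand and that of Phlda3 chr1:135765835-135766084 on the plus strand. The Ccng1 sequence is shorter, with 227 bases, because it stops where the annotated span of the gene begins, which lies upstream of the start from which the positions given below are counted.
Cdkn1a: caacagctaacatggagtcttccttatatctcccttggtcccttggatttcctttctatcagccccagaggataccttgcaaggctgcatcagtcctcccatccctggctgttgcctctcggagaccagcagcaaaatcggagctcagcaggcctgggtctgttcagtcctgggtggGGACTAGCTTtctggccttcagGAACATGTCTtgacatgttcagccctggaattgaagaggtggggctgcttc
Mdm2: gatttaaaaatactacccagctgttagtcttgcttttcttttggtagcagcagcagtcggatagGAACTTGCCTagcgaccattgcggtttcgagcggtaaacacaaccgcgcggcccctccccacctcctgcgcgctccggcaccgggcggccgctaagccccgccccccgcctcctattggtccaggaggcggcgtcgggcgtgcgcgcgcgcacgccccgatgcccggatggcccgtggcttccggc
Ccng1: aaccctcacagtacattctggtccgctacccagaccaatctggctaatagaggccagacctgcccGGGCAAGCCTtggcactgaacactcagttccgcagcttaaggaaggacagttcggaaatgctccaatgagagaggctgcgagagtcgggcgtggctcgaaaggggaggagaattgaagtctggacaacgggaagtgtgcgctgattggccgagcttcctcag
Phlda3: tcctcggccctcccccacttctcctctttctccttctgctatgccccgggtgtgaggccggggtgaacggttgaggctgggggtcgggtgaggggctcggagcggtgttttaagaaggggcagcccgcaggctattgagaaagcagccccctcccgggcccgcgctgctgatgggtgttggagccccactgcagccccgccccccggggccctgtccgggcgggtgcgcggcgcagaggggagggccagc

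In the sequences above, Cdkn1a had 2 half-sites, at bases -73 and -51 counted from the start in the promoter table to the first base of the match, Mdm2 had 1 at -186 and Ccng1 had 1 at -185. Cdkn1a has a further annotated start, and the window upstream of it, which begins at chr17:29093519, held no half-site. The half-site at -51 of Cdkn1a was followed directly by 10 bases that left the consensus at 1 position, so that a nearly complete pair stood there. In the other matches of the measured genes, which include 1 in Gadd45a at -40 and 1 in Sesn1 at -173, the next 10 bases left the consensus at 3 to 7 positions. Only bases after a match were compared, so a pair formed with the bases before it was not looked for. Those directly before the Ccng1 match, agacctgccc in the sequence above, also come close to the consensus. No match stood in these 250 bases of Phlda3, Chek1 or Chek2, which says only that these letters are not in this window. A half-site stood in at least 1 window of 5 among the 8 measured genes with promoter entries, beside 8.2% of all 27025 symbols with one. Most of the genes are named here because they are p53 targets, so this is a description. Trp53inp1 had no entry.

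CD8 T cell genes were high on every array (Cd8a from 12.48 to 12.79 and Cd3d from 13.90 to 14.03 on the log2 scale), and both NK cell genes measured, Ncr1 and Klra8, had means under the limit for testing. Of 9 B cell genes measured, 5 were under it: Pax5, Ms4a1, Cd79a, Cd79b and Blk. The other 4, Cd74, H2-Aa, H2-Ab1 and Ighm, were above it, and all 4 differed between mice; they are taken up with the mice below. Genes of the ID8 cells gave signal, and they set mouse B apart. Of 20 markers listed 12 were tested, and their mean with PD-L1-overexpressing and then depleted targets was 8.69 and 7.50 for mouse A, 9.20 and 8.15 for C, and 9.13 and 8.08 for D. The order was turned for mouse B, with 7.56 and then 9.08. Fewer cells of a type and less RNA per cell cannot be told apart in such bulk samples. Upk3b, Cpe and Mgst1 were among the markers that turned in mouse B. The differences of the 9 genes between targets are therefore also given without mouse B.

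The first comparison asked which genes differ in T cells that met targets with much or little PD-L1. No p53 target or checkpoint gene passed, and all differences below are PD-L1-overexpressing minus PD-L1-depleted on the log2 scale. Over all 8003 genes tested, limma with the mouse as a block called 0 higher and 0 lower (0.00% each), and 228 genes (2.85%) had an unadjusted p under 0.05, 127 of them lower (1.59%). Of the 9 genes described here, 4 differed upward and 5 downward, 0 were called and 1, Chek2, had an unadjusted p under 0.05. Their median difference was -0.0016, beside 0.0033 over all genes tested.

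**Figure D1:**
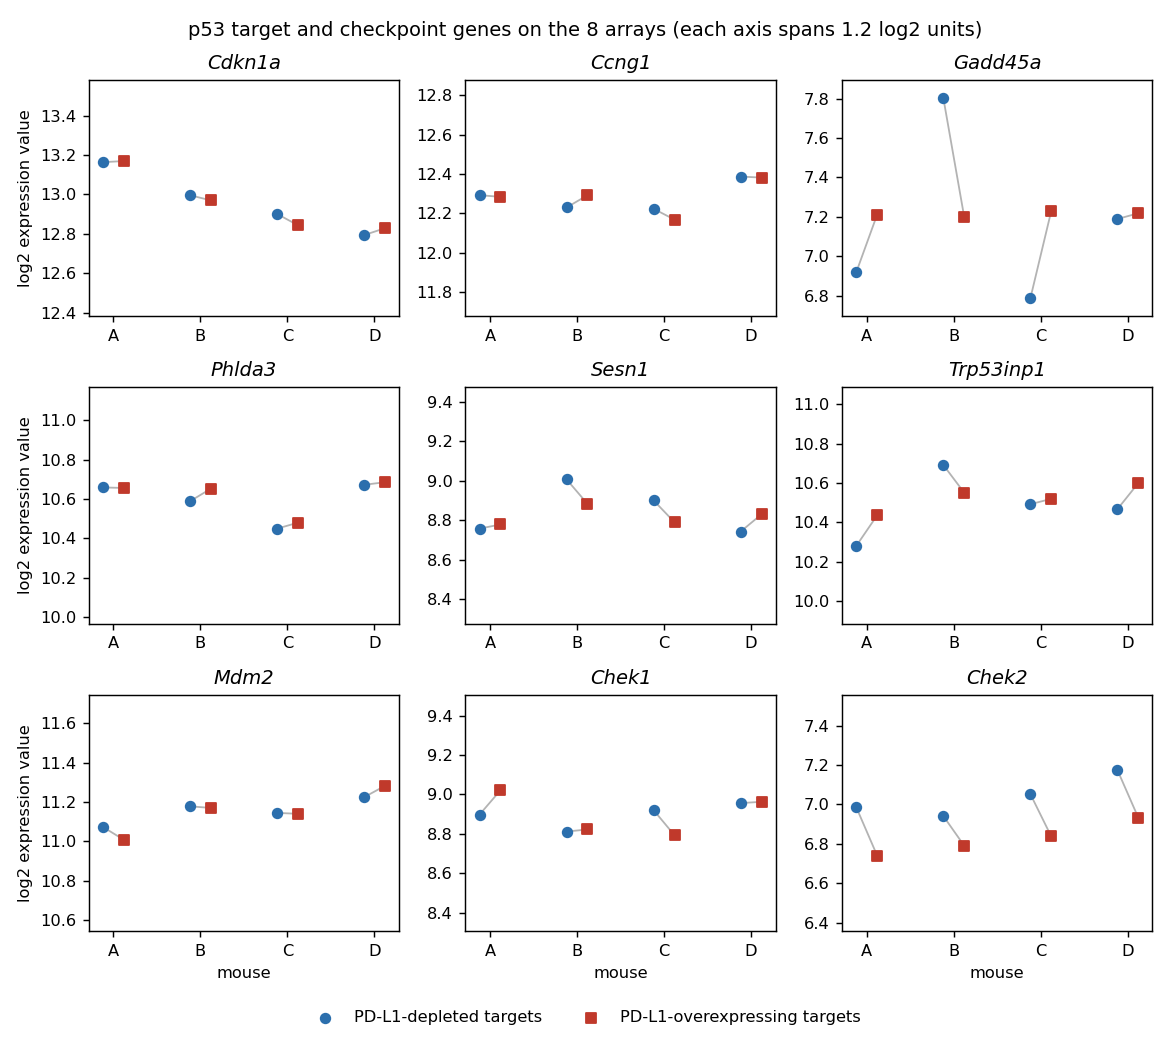
Log2 expression values of the 9 genes on the 8 arrays, 1 panel per gene, with the mouse on the horizontal axis; circles are PD-L1-depleted and squares PD-L1-overexpressing targets, and a line joins the 2 arrays of a mouse. Chek2 was lower with overexpressing targets in each mouse, Gadd45a moved in opposite directions between mice, and Cdkn1a differed between mice far more than between targets.

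Chek2, the kinase that acts after ATM, was lower with PD-L1-overexpressing targets in all 4 mice. With overexpressing targets its values for mice A to D were 6.74, 6.79, 6.84 and 6.93. With depleted targets they were 6.99, 6.94, 7.05 and 7.17. The lowest depleted value lay just above the highest overexpressing one, so the groups did not overlap. This held for 0.325% of all genes tested in this direction, and 4.69% were lower in 4 of 4 mice. The difference was -0.21 (SE 0.063, 95% interval -0.36 to -0.071), with an unadjusted p of 0.0079 and a limma adjusted p of 0.9995, so Chek2 did not pass. In the fit without mouse B it was -0.23 and did not pass either (limma adjusted p = 0.145). Unlike the ID8 markers, Chek2 kept its direction in mouse B, at -0.15. Cd4, the 1 tested gene of 4 measured from the list of CD4 T cells, was also lower in 4 of 4 mice, by -0.23, -0.025, -0.20 and -0.26 in mice A to D. Its difference was -0.18 (limma adjusted p = 0.9995), and without mouse B it was called at -0.23 (limma adjusted p = 0.026). Its part in the Chek2 difference was not tested. The Chek2 mean of 6.93 lay close to the limit for testing. Probe sets at that level ran slightly low as a whole: those with a mean from 6 to 7 had median differences of -0.051, 0.022, -0.028 and -0.074 for mice A to D. The part of that shift in the Chek2 difference was not tested. With quantile normalisation the difference was -0.19.

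Gadd45a, a stress-induced inhibitor of cell growth, was the gene with the widest spread of the 9. Its probe set was dim, with a mean of 7.19, and the depleted array of mouse C, at 6.79, lay under the limit for testing. With PD-L1-overexpressing targets it read 7.21, 7.20, 7.23 and 7.22 in mice A to D, and with depleted targets 6.92, 7.80, 6.79 and 7.19. The 4 overexpressing arrays lay within a narrow band (SD 0.013), while the depleted arrays lay on both sides of it (SD 0.45). By mouse, A to D, the differences were 0.29, -0.60, 0.44 and 0.029. Their mean was 0.040 (SE 0.14, 95% interval -0.29 to 0.37, limma adjusted p = 0.9995). Without mouse B it was 0.26 (95% interval 0.083 to 0.43) and did not pass (limma adjusted p = 0.150).

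Trp53inp1, a stress-induced partner of p53, had the same signs by mouse as Gadd45a. It read 10.44, 10.55, 10.52 and 10.60 with overexpressing and 10.28, 10.69, 10.49 and 10.47 with depleted targets in mice A to D. The differences were 0.16, -0.14, 0.027 and 0.13, and their mean was 0.044 (SE 0.049). Without mouse B the difference was 0.11 (95% interval 0.026 to 0.18, limma adjusted p = 0.215). A second, dimmer probe set of Trp53inp1 differed by -0.018, -0.016, 0.10 and 0.071 and did not show these signs. Higher in mice A, C and D and lower in B is also how the ID8 markers moved, and 8.96% of all genes tested had these signs; the part of ID8 RNA in the values of Gadd45a and Trp53inp1 was not tested. Without mouse B, 176 genes (2.20%) were called between targets, and 0 of the 9 genes were among them; 3 of the 9, beside 994 genes (12.4%), had an unadjusted p under 0.05.

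**Figure D2:**
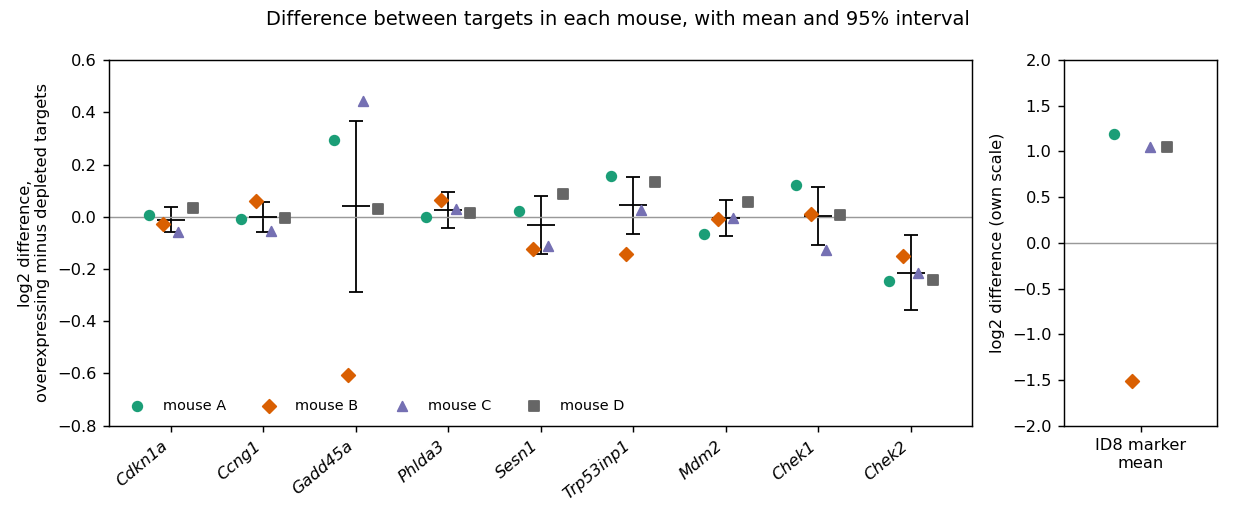
Difference between targets on the log2 scale in each mouse (symbols), with the mean and 95% interval of the limma fit (black), and on the right, on its own scale, the same difference for the mean of 12 ID8 markers. In mouse B the ID8 markers, Gadd45a and Trp53inp1 lay below 0 while they lay above 0 in the other mice, and Chek2 lay below 0 in each mouse.

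Sesn1, a sestrin that restrains growth signalling under stress, differed by -0.032 (SE 0.049), and by -0.00074 without mouse B. Its values were 8.78, 8.88, 8.79 and 8.83 with overexpressing and 8.76, 9.01, 8.90 and 8.74 with depleted targets in mice A to D, and the groups overlapped. Its other probe sets differed by -0.017 and -0.0055. The first of these, with a mean of 7.82, differed by -0.45 in mouse B and by 0.20, 0.046 and 0.14 in mice A, C and D. Those are the signs of the ID8 markers. The second, with a mean of 7.81, differed by -0.13, -0.14, 0.21 and 0.039 in mice A to D and did not show these signs. Nor did the brightest probe set, at 0.021, -0.12, -0.11 and 0.088.

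The remaining 5 genes had mean differences close to 0. Cdkn1a differed by -0.011 (SE 0.022, 95% interval -0.060 to 0.039). Mdm2, the feedback regulator of p53, differed by -0.0051 (SE 0.030, 95% interval -0.073 to 0.062). Ccng1, which encodes cyclin G1, a p53-induced regulator of Mdm2, differed by -0.0016 (SE 0.025). Phlda3, an inhibitor of the survival kinase Akt, differed by 0.026 (SE 0.030). Chek1, the kinase that acts after ATR, differed by 0.0032 (SE 0.048, 95% interval -0.11 to 0.11), but by 0.12 in mouse A and -0.13 in mouse C. The limma adjusted p was 0.9995 for each. Without mouse B the differences were -0.0057 for Cdkn1a, -0.0041 for Mdm2, -0.023 for Ccng1, 0.014 for Phlda3 and 0.00078 for Chek1. Other probe sets of Cdkn1a, Mdm2 and Ccng1 differed by -0.024 to 0.015, and a second Chek1 probe set by 0.080. By mouse, A to D, this Chek1 probe set differed by 0.14, 0.048, 0.18 and -0.048, so in mouse C it went the other way. Another pair of Chek1 probe sets had means of 5.57 and 4.93, under the limit, and was not tested.

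The second comparison set the mice against each other, each animal's 2 arrays giving the spread. Of the 9 genes, 4 passed limma's F test between mice: Cdkn1a, Phlda3, Ccng1 and Mdm2. That is 4 of 9 beside 2347 of 8003 genes tested (29.3%). Without mouse C 2 of the 9 passed, Cdkn1a and Mdm2, beside 23.5% of all genes tested. Without mouse D 1 passed, Cdkn1a, beside 20.3%. The ranges were small: the highest and lowest mouse means were 1.28-fold apart for Cdkn1a, 1.16-fold for Phlda3, 1.16-fold for Mdm2 and 1.14-fold for Ccng1. The median range of the 9 genes, 0.21, was close to that of all genes tested, 0.19. Both arrays of an animal hold T cells of 1 preparation, so that these p-values rest on variation among cultures, not among animals of a kind.

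Cdkn1a was highest in mouse A, and its mouse means stood in the order A, B, C and D. It read 13.17 and 13.16 in mouse A, 12.97 and 13.00 in B, 12.84 and 12.90 in C, and 12.83 and 12.79 in D (overexpressing, then depleted). Values of different mice did not overlap, differences between neighbouring mice were not tested, and the mouse accounted for 98.2% of the variance of its 8 values. Against the mean of the other mice, Cdkn1a was higher in mouse A by 0.28 (SE 0.025, 1.21-fold, limma adjusted p = 6.4e-05). It was lower in mouse D by -0.20 (limma adjusted p = 0.0018) and in mouse C by -0.11 (limma adjusted p = 0.027). Without mouse A the calls in mice C (-0.024) and D (-0.12) were lost (limma adjusted p = 0.702 and 0.0889). A second Cdkn1a probe set gave the same order of mice and was called in A (0.27) and D (-0.22) but not in C. The F test called Cdkn1a (limma adjusted p = 0.00020), and did so with each mouse left out in turn.

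Mdm2 went the other way. Its values were 11.01 and 11.07 in mouse A, 11.17 and 11.18 in B, 11.14 and 11.14 in C, and 11.28 and 11.22 in D. It was lower in mouse A by -0.15 (SE 0.035, limma adjusted p = 0.011) and higher in mouse D by 0.13 (SE 0.035, limma adjusted p = 0.046). A second Mdm2 probe set showed the same, at -0.22 in mouse A and 0.22 in D, both called. Without mouse D the call in A was lost (-0.12, limma adjusted p = 0.0800), and without mouse A or C that in D was lost (0.095 and 0.15, limma adjusted p = 0.274 and 0.0527). Over the 8 arrays, which come from 4 animals, Cdkn1a and Mdm2 correlated at r = -0.84, which is a description. Both are p53 targets, and in mouse A the 2 transcripts stood at opposite ends.

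**Figure D3:**
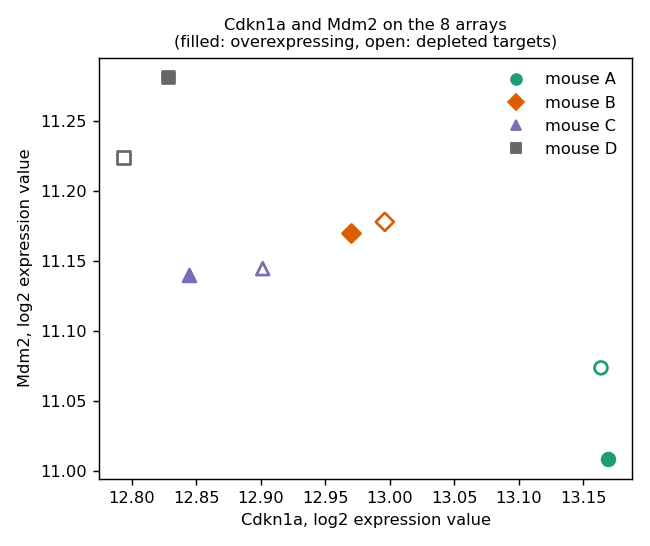
Log2 expression value of Mdm2 against that of Cdkn1a on the 8 arrays; colour and shape give the mouse, filled symbols overexpressing and open symbols depleted targets. The arrays of mouse A lie at the right and lowest, those of mouse D at the left and highest, with mice B and C between.

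By mouse means, Ccng1 and Phlda3 shared their lowest mouse, C, and their highest, D. Ccng1 read 12.28 and 12.29 in mouse A, 12.29 and 12.23 in B, 12.17 and 12.22 in C, and 12.38 and 12.39 in D. It was lower in mouse C by -0.12 (SE 0.029, limma adjusted p = 0.044) and higher in D by 0.14 (SE 0.029, limma adjusted p = 0.022). Without mouse A the differences were as large, at -0.13 in C and 0.16 in D, but did not pass (limma adjusted p = 0.0747 and 0.0526). The call in C was also lost without mouse D (-0.079, limma adjusted p = 0.205), and that in D without mouse C (0.11, limma adjusted p = 0.0541). Its other probe sets were lower in C by -0.10 and -0.13 without passing, and in D differed by 0.0078 and 0.11, also without passing. Phlda3 read 10.66 and 10.66 in mouse A, 10.65 and 10.59 in B, 10.48 and 10.45 in C, and 10.69 and 10.67 in D. It was lower in mouse C by -0.19 (SE 0.035, limma adjusted p = 0.013), and both arrays of C lay under those of the other mice. In mouse D, close to mouse A, Phlda3 was higher by 0.098 and did not pass (limma adjusted p = 0.123). Ccng1 and Phlda3 correlated at r = 0.83 over the 8 arrays, as a description.

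Trp53inp1 was lower in mouse A than in the others by -0.20 (SE 0.056, limma adjusted p = 0.028) but did not pass the F test (limma adjusted p = 0.072). It passed that test with quantile normalisation, with robust eBayes variances and without mouse B. Its second probe set differed by -0.072 in mouse A and did not pass, and without mouse D the call was lost at -0.21 (limma adjusted p = 0.0515). Sesn1 was not called in any mouse on its brightest probe set. On the probe set that averaged 7.82 it differed by -0.41 in mouse A and 0.48 in B. It was called in both (limma adjusted p = 0.034 and 0.045 over all probe sets). On the probe set that averaged 7.81 it differed by -0.15 in A and 0.22 in B. There it was not called (limma adjusted p = 0.187 and 0.130 over all probe sets). Gadd45a differed most in mouse B, by 0.41 (SE 0.17), and did not pass (limma adjusted p = 0.164). Chek1 ranged over 1.10-fold and Chek2 over 1.14-fold between mice, and neither passed (limma adjusted p = 0.243 and 0.276).

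**Figure D4:**
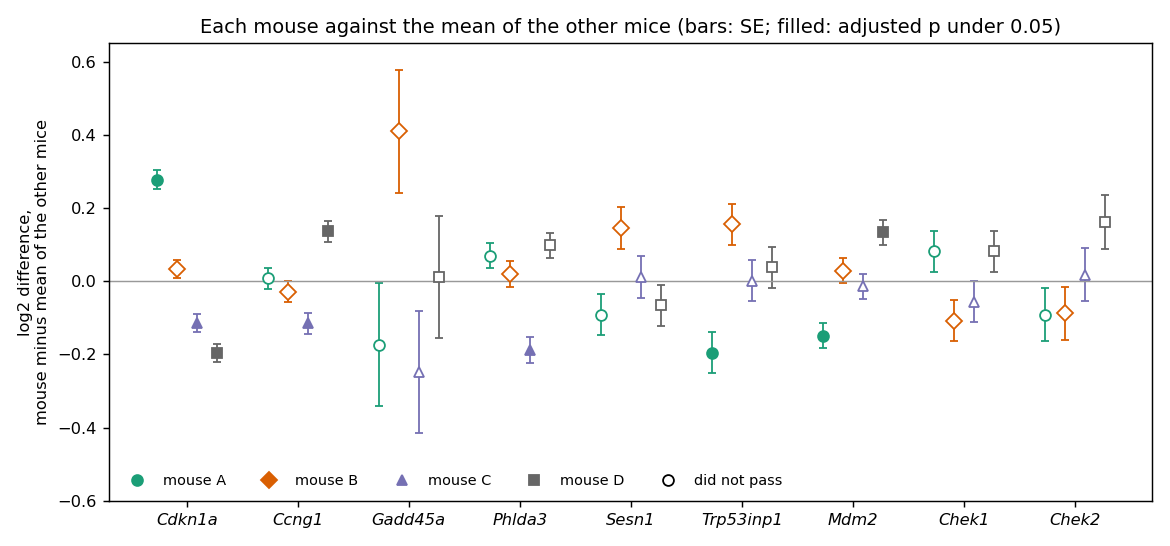
Difference of each mouse from the mean of the other mice on the log2 scale, with SE as bars; filled symbols passed limma at an adjusted p under 0.05. Cdkn1a was high in mouse A (0.28) where Mdm2 (-0.15) and Trp53inp1 (-0.20) were low, and Ccng1 and Phlda3 were low in mouse C.

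By mouse, 1 of the 9 genes was higher and 2 lower in A (18.1% and 12.7% of all genes tested), and 0 were higher or lower in B (6.30% and 2.96%). In C 0 were higher and 3 lower (3.09% and 5.35%), and in D 2 were higher and 1 lower (4.56% and 4.09%). In no mouse were more than 2 of the 9 called higher. Quantile normalisation ended the calls in mouse C of Cdkn1a (-0.10, limma adjusted p = 0.0532) and of Ccng1 (-0.080, limma adjusted p = 0.202). Median centring ended that of Mdm2 in D (0.11, limma adjusted p = 0.0922). Averaging the probe sets of a gene ended those of Ccng1 in D (0.085, limma adjusted p = 0.0858) and of Trp53inp1 in A (-0.13, limma adjusted p = 0.0550). The calls of Cdkn1a in A and of Phlda3 in C held in each alternative run in which they were followed. These were the other normalisations, the other probe set rules and the omission of each other mouse. Phlda3 had no further probe set, so the probe set rules could not change its difference, which stayed at -0.19. Under other filters, eBayes settings or block rules, calls of a gene in a mouse were not followed. Mouse A also had lower CD8 T cell genes, with 6 of 8 called lower and 0 higher; the list mean was 12.52 and 12.54 in A and 12.63 to 12.74 elsewhere. Other marker genes moved as well. Of the 4 B cell genes tested, 3 were lower in mouse A (H2-Aa by -2.02, Ighm by -0.65 and H2-Ab1 by -0.54), all 4 were higher in B, 2 were lower in C and 3 were higher in D. H2-Aa, a gene of MHC class II, ranged over 10.5-fold between mice. Of 7 macrophage and dendritic cell genes measured, 2 were tested, and the others had means under the limit. Cd68 was lower in mouse A (-0.34) and higher in C (0.47). Csf1r, the other gene tested, differed by -0.031 in mouse A and was not called in any mouse. The part of these in the values of the 9 genes was not tested.

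Further genes of the pathway were taken from lists of p53 targets and checkpoint genes. Between targets none was called. That is 0 of 16 tested genes of arrest and feedback, 0 of 11 of cell death and 0 of 12 of repair and metabolism. It is also 0 of 21 of DNA damage sensing and checkpoint and 0 of 27 of S phase and mitosis. In this order, the median differences of the 5 lists were 0.011, 0.014, -0.00076, 0.0098 and -0.0029. Btg2, an antiproliferative p53 target, had the smallest p of the first list and differed by 0.065 (SE 0.027, higher in 4 of 4 mice). Perp, a p53-induced membrane protein gene of cell death, differed by 0.074 (SE 0.038) and Rpa3, a subunit of the complex that coats single-stranded DNA, by 0.073 (SE 0.035), both higher in 4 of 4 mice. Wee1, the kinase that holds back mitosis, differed by -0.082 (SE 0.049) and was lower in 4 of 4. Mki67, the proliferation marker, differed by 0.076 (SE 0.031, higher in 4 of 4) and Bub1, of the spindle checkpoint, by -0.083 (SE 0.038, lower in 4 of 4). The limma adjusted p was 0.9995 for each. Without mouse B 0 genes of these 5 lists were called either; the differences were then 0.058 for Btg2, 0.086 for Perp, 0.081 for Rpa3, -0.10 for Wee1, 0.093 for Mki67 and -0.089 for Bub1.

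Between mice these lists moved in both directions. Their counts stand beside the shares over all genes tested, which were 18.1% higher and 12.7% lower in mouse A, 6.30% and 2.96% in B, 3.09% and 5.35% in C, and 4.56% and 4.09% in D. In mouse A, 4 of the 16 arrest and feedback genes were higher, among them Zmat3 (0.28) and Gtse1 (0.37), and 6 were lower, among them Btg2 (-0.57), Gadd45b (-0.43) and Gadd45g (-0.33). Cdkn2a, which encodes inhibitors of Cdk4 and of Mdm2 and is a regulator of the pathway more than a p53 target, was lower in mouse A by -1.18 and higher in C by 0.64 and in D by 0.63. Of the 11 cell death genes, Perp (0.38) and Aen (0.30), a nuclease gene, were higher in mouse A. Pmaip1, which encodes the death protein NOXA, was lower there (-0.59) and higher in B (0.36) and D (0.26). Fas, the death receptor gene, was higher in mouse B (0.35) and lower in C (-0.35). Aen (-0.23) and Bid (-0.33) were lower in mouse C as well. Of the 12 repair and metabolism genes, Slc19a2 (0.35), Rrm2b (0.25) and Sesn2 (0.18) were higher and Ddit4 (-0.10) lower in mouse A. In mouse C 3 were lower and 0 higher.

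In mouse A 8 of the 21 genes of DNA damage sensing and checkpoint were higher and 0 lower. Their median was 0.11, beside 18.1% higher and a median of 0.022 over all genes tested. Rad50 (0.31), of the complex that finds double-strand breaks, Rad1 (0.34) and Rad9a (0.23), of the clamp that activates ATR, and Tipin (0.21), of the replication fork, were among them. The others were Atm (0.20), Rpa2 (0.18), Cdc25a (0.18) and Cdc25b (0.21), so the 8 are not all damage sensors. In mouse B, Atr (0.24) and Trp53bp1 (0.16) were higher and Tipin (-0.20) and Rpa3 (-0.17) lower. In C and D 0 were called. Genes of S phase and mitosis, whose products run division, were called lower in mouse B for 15 of 27 (2.96% over all genes) and higher for 0, among them Ccna2 (-0.33) and Rrm2 (-0.20). In mouse C 11 of 27 were higher (3.09% over all genes) and 0 lower, among them Ccnb2 (0.24) and Bub1 (0.22). In mouse A 6 of 27 were higher (18.1% over all genes), among them Mcm7 (0.26). There 2 were lower (12.7% over all genes), Cdt1 (-0.41) and Birc5 (-0.18). In D 1, Rrm2, was higher (4.56% over all genes). Chek1 differed by -0.11 in mouse B and -0.056 in C, neither of which passed (limma adjusted p = 0.254 and 0.574). Cdkn1a differed by 0.033 in mouse B and did not pass there (limma adjusted p = 0.438). The part of Cdkn1a in the differences of the S phase and mitosis genes was not tested.

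The genes whose values over the 8 arrays were most like those of Cdkn1a, by Pearson's r over all genes tested, were Oga (r = 0.993), Nfkb2 (0.991) and Fbxl14 (0.991). Oga read 11.53 and 11.51 in mouse A and 11.11 and 11.01 in D, and Nfkb2 11.29 and 11.25 in A and 10.67 and 10.66 in D. For Chek1 they were Sel1l (0.966), Add1 (0.951) and Zfp322a (0.938). The 8 arrays come from 4 animals, and these are the highest of 8003 genes searched, so they are descriptions.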

How the data were processed

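Per the labels' protocols, biotin-labelled total RNA was hybridised to a 3' expression array. The deposited table gives 1 log2 value per probe set and array; the scale was inferred from its range, and the authors' summarisation and normalisation are not given in the sources used here. Between arrays, values of equal rank differed by at most 0.167. The table held 0 columns of other samples. Precision is limited by having 4 arrays a group.

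Each gene was represented by its probe set of highest mean, control probe sets being dropped, and tested if that mean reached the 40th percentile of the remaining probe sets (6.87), which gave 8003 genes. The test was limma 3.58.1 (R 4.3.3, lmFit and eBayes, variance trend on). P-values are two-sided and Benjamini-Hochberg adjusted over all genes, with a threshold of 0.05. The mouse entered as a fixed block: the series design says that cells of each animal were divided, and the titles name the animal. Deviations of paired arrays correlated at 0.82 (A), 0.16 (B), 0.61 (C) and 0.64 (D).

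All 9 genes are named and, from each further list, up to 4 called genes a direction by smallest p, or, if none was called, up to 2 by smallest p. The damage sensing and checkpoint genes called in mouse A are all named. The genes and lists were chosen with earlier results of these data known. Alternatives tried were no block, a random block, other normalisations, filters, probe set rules and eBayes settings, and the omission of each mouse. Scripts for the fits were first tested on simulated data.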

Additional observations from a re-analysis of the deposited data

Results flagged for a closer look

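For each gene and kind of target, it was asked how far the most extreme of the 4 arrays lay from its neighbour, as a share of the range of all 4. Of 18 such sets of values 1 exceeded Dixon's limit, where about 0.9 would do so by chance. It was Phlda3 with PD-L1-overexpressing targets, at 0.838: mouse C was lowest at 10.48, and the next array stood at 10.65. With PD-L1-depleted targets mouse C was lowest as well, at 10.45, with a share of 0.624 that did not exceed the limit.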

How the results depend on the processing

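No gene was called between targets in the paired fit (the mouse as a block), and none without the replicate block (0); leaving out each mouse gave 0 to 176, the latter without mouse B. The count of genes differing between mice ran from 576 (without mouse A) to 3555 (without mouse B). That of the 9 genes ran from 1 without mouse D (20.3% of all genes tested) to 5 without mouse B (44.4%). It was 2 without mouse C (23.5%), against 4 with all mice (29.3%). Without an eBayes trend it was 2, Cdkn1a and Phlda3 (20.6%). With quantile normalisation it stayed at 4 (27.3%), with Trp53inp1 in place of Ccng1. Sesn1 passed as well when probe sets were averaged or all tested. Without a trend, the counts of genes in mouse B, C and D against the others went from 741, 675 and 692 to 471, 381 and 354, and leaving out a mouse moved those of C over 348 to 1684 and of D over 169 to 1798. Differences of the 9 genes between targets that turned sign were all uncalled: median centring gave 0.0065 for Ccng1 and 0.0030 for Mdm2, the mean of probe sets 0.0070 for Ccng1, its other probe sets 0.015 and 0.0076, and quantile normalisation -0.0086 for Chek1. Leaving out a mouse moved Ccng1 over -0.023 to 0.016, Cdkn1a over -0.026 to 0.0048, Chek1 over -0.037 to 0.047, Gadd45a over -0.094 to 0.26 and Mdm2 over -0.026 to 0.015. Of 64 repeats of the calls of a gene in a mouse, 43 kept and 21 lost the call, and 0 turned sign. For Phlda3 the repeat with averaged probe sets could not change the difference. The block changed no call between targets. The cause of these changes was not tested. Differences of dim genes such as Chek2 and Gadd45a are limited by signal close to background.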
